A study of Mus musculus with 16 samples.

Results

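The genes that encode the proteins of the cytosolic ribosome were followed across mouse embryonic stem (ES) cells labelled as Pml knockout (KO), in wild-type (WT) cells stressed with sodium arsenite, and in cells labelled as Trim33 KO or WT that were given a ligand or an inhibitor of activin signalling. The genes were taken by symbol alone: names that start with Rpl or Rps followed by a digit, with Rplp0, Rplp1, Rplp2 and Rpsa added, and without the kinase genes Rps6k, the gene Rps19bp1 and names that hold -ps. This gave 87 genes, 53 of the large and 34 of the small subunit, the same in all 3 tables, which hold 24320 gene names for Pml and 24394 each for arsenite and Trim33. There were 8 groups with 2 libraries each. The groups were Pml KO cells set against WT cells (untreated), WT cells given 200 µM sodium arsenite for 2 h set against untreated WT cells, and, in the third table, cells labelled Trim33 KO or WT given activin A at 50 ng/ml or SB431542 at 10 µM for 2 h. All were labelled as the E14Tg2a.IV line with C57BL/6 as the strain, and were grown feeder-free on gelatin with fetal bovine serum and leukemia inhibitory factor. The growth protocol names a further line, CCE, without saying which libraries it concerns, and neither how the knockouts were made nor whether each was 1 clone is given in the labels. Nothing in the labels shows that a group's libraries are separate cultures, so p-values here measure spread between samples that may be technical.

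A ribosome has a small subunit, which reads the messenger RNA, and a large subunit, which joins amino acids, and each subunit carries 1 copy of nearly every one of its proteins. The messenger RNAs of these proteins are among the most abundant of dividing cells. Most start with a C followed by a run of C and T bases, the 5′ terminal oligopyrimidine (TOP) motif, through which mTOR signalling and the RNA-binding protein LARP1 set their translation and stability. Sodium arsenite is an oxidative and proteotoxic stressor that leads to phosphorylation of the initiation factor eIF2α and to stress granules. PML is the scaffold of PML nuclear bodies, and TRIM33 is a chromatin-bound partner of the SMAD2 and SMAD3 proteins that activin A activates and SB431542 blocks.

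The TOP motif lies at the transcription start, so the start regions of some members are shown, from 40 bases before to 20 bases after the RefSeq start (GRCm38.p6, 5′ to 3′ on the gene's strand). The first 4 are among the 6 members with a promoter entry that fell most with arsenite, the next pair are among those that differed least, and the last pair were called between Trim33 groups. Capitals mark the longest run of C and T that reaches within 5 bases of the start.
Rpl38: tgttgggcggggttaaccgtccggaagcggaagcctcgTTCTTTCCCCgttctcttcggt
Rps28: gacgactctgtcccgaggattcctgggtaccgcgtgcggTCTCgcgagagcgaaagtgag
Rps21: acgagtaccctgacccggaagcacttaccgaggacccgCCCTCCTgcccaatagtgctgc
Rpl37: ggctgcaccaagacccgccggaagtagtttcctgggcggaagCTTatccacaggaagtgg
Rpl10a: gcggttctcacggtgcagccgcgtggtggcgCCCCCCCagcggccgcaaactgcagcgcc
Rps27l: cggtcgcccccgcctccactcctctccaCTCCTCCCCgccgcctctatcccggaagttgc
Rps3a1: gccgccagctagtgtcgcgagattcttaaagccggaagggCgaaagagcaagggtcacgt
Rpl39l: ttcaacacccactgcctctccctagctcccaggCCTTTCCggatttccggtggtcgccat

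These stretches lie at chr11:114668540-114668599 (Rpl38, plus strand), chr17:33824543-33824602 (Rps28, minus), chr2:180257339-180257398 (Rps21, plus), chr15:5116573-5116632 (Rpl37, plus), chr17:28328431-28328490 (Rpl10a, plus), chr9:66946046-66946105 (Rps27l, plus), chr3:86142649-86142708 (Rps3a1, minus) and chr16:10170188-10170247 (Rpl39l, plus). The run is 10 bases long in Rpl38 and 9 in Rps27l, and 4 in Rps28 and 1 in Rps3a1. Long runs were thus seen both in a member that fell strongly with arsenite and in one that was not called. RefSeq promoters were found for 68 of the 87 members. A run of at least 8 C or T bases stood at the start of 38.2% of these, against 11% of 27025 genes with a promoter, and the median run was 6 bases in members and 4 over all genes. The words CTTTCC and CTTTTC, searched on the gene's strand within 15 bases of the start and overlapping such runs, stood in 16.2% and 7.4% of members, against 1.7% and 1.3% of all genes. In the window from 250 bases before to 50 after the start, on both strands, CCGGAAG, the core bound by ETS factors, stood in 38.2% of members against 9.9% of all genes. AAGATGGC, the core bound by YY1, stood in 8.8% against 3.2%, and GGGCGG, bound by SP1, in 58.8% against 38.2%.

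Arsenite and untreated libraries held 46700000 to 48500000 reads and the Trim33 ones 31200000 to 39500000, as recovered from the steps between low values, and the depth of the Pml libraries is unknown. Values were tested only within a table, since each was normalised on its own. Pml RNA was lower but present in the KO cells, with 32.02 and 33.5 FPKM against 49.9 and 45.1 FPKM in WT cells. Trim33 followed the labels with activin A, at 2.53 and 2.79 RPKM in KO cells and 20.1 and 23.5 RPKM in WT cells, and went against them in every SB431542 library, at 18.3 and 24.6 RPKM in libraries labelled KO and 2.94 and 2.44 RPKM in libraries labelled WT. SB431542 libraries are therefore called by their labels throughout. The Y-linked gene Eif2s3y was low wherever Trim33 was low, at 0 to 0.143 RPKM against 38.3 to 41.0 RPKM in the other libraries, and was also lower in Pml KO than in WT cells (1.10 and 0.753 FPKM against 16.2 and 20.6 FPKM), so another difference between cell lines cannot be told apart from either knockout. The ES cell marker Pou5f1 was present in all 16 libraries, at 478 to 1601 FPKM or RPKM.

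The ribosomal protein genes held a large part of every library. Their values summed to 28.4% and 27.9% of all values in Pml KO cells and 27.3% and 26.9% in WT cells, to 18.4% and 17.6% with arsenite and 22.3% and 22.4% in untreated cells. In the Trim33 table they summed to 20.3% and 23.6% in KO cells and 20.7% and 21.6% in WT cells with activin A, and to 23.3% and 20.03% in libraries labelled KO and 21.3% and 24.4% in those labelled WT with SB431542. Both arsenite libraries lay below both untreated ones and both Pml KO libraries above both WT ones, while the Trim33 groups overlapped. Between 56 and 64 of the 100 highest genes of a library were members. Quantile scaling, which gives each library the same distribution, is thus set at its top largely by the members themselves, and is reported beside the deposited scale for that reason.

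**Figure D1:**
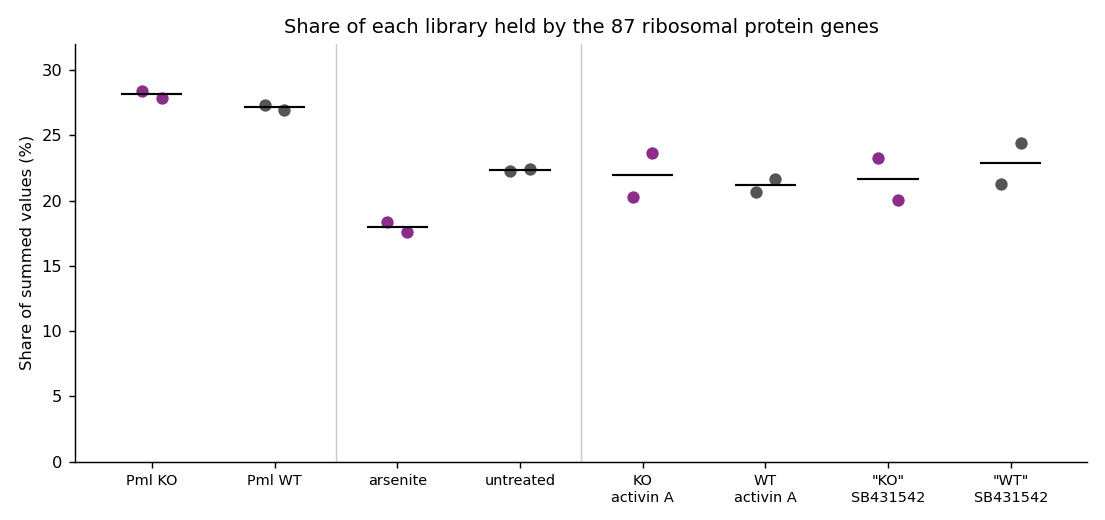
Share of each library's summed values (percent) held by the 87 ribosomal protein genes, with 1 point per library and a line at the group mean (2 libraries each), from 3 tables separated by grey lines. Arsenite libraries sit at 18.4% and 17.6%, below untreated ones at 22.3% and 22.4%, and quotation marks stand for SB431542 groups whose genotype label Trim33 contradicts.

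Most members were abundant, and a few were near 0 in a way that depended on the table. Of the members, 63 averaged at least 1000 FPKM in the Pml table, 17 lay between 100 and 1000, 4 between 10 and 100 and 3 under 10, with a median of 1960 FPKM. The medians were 925 RPKM in the arsenite table and 1081 RPKM in the Trim33 table, where 39 and 55 members averaged at least 1000 RPKM and 7 in each averaged under 10. Small subunit genes had the higher median in each table: 1701 FPKM for large and 2251 FPKM for small subunit genes in the Pml table, 799 and 1206 RPKM in the arsenite table, and 1075 and 1250 RPKM in the Trim33 table. Rplp1, which encodes a protein of the acidic stalk that recruits elongation factors, was highest in the Pml table (8257 FPKM) and the arsenite table (3081 RPKM), and Rpl41, the member with the shortest coding sequence (138 bases), was highest in the Trim33 table (3543 RPKM).

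**Figure D2:**
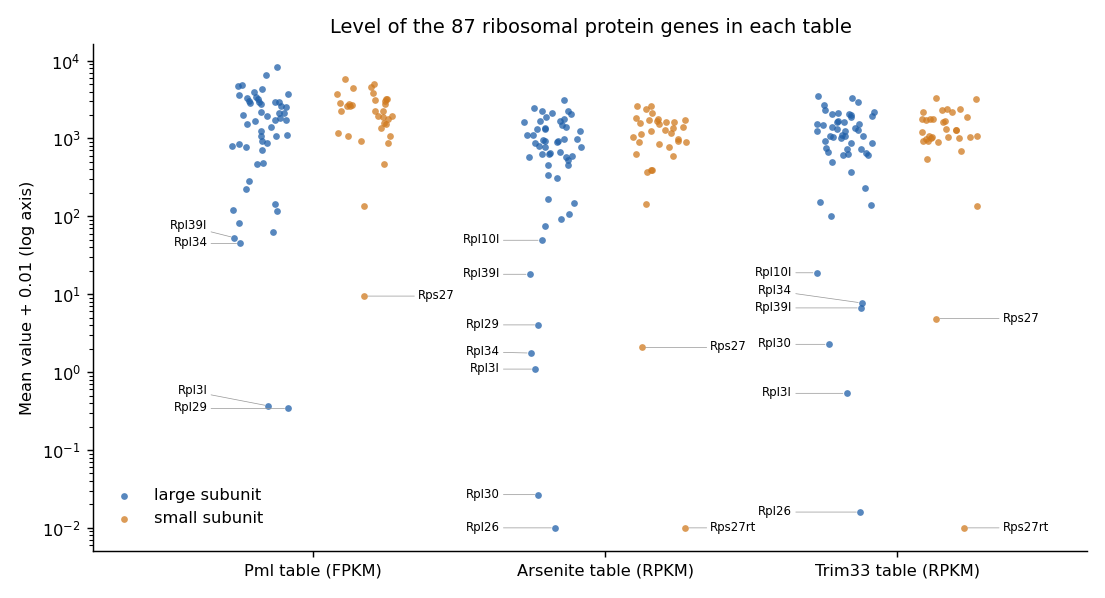
Mean value per gene (plus 0.01, log axis) of the 87 ribosomal protein genes in each of 3 tables, large subunit in blue and small subunit in orange; members under 60 are named. Medians are 1960 FPKM, 925 RPKM and 1081 RPKM, and Rps27rt lies among the highest members in the Pml table and at the bottom of the others.

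Some members were listed near 0 in some tables. Rpl29 averaged 0.332 FPKM in the Pml table, 4.03 RPKM in the arsenite table and 607 RPKM in the Trim33 table. Rps27rt, a retrocopy of Rps27 with 1 exon, averaged 4562 FPKM in the Pml table and was listed at 0 in every library of the other tables, while Rps27 itself averaged 9.45 FPKM, 2.06 RPKM and 4.85 RPKM. Rpl26 averaged 221 FPKM in the Pml table and was listed at 0 in 11 of the 12 other libraries, and Rpl30 and Rpl34 averaged 62.3 and 44.9 FPKM there, against 0.0167 and 1.75 RPKM in the arsenite table and 2.26 and 7.71 RPKM in the Trim33 table. These values do not show that such genes were silent.

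Many members share most of their sequence with other annotated transcripts, and the sources used here do not give how reads that match several genes were assigned. The 50-base words of each member were searched in transcripts of other genes, in the coding sequence for 85 members and in the whole transcript for the other 2, and the median over all 87 was 88.3% of words shared. All words were shared by 27 members, over 80% by 57, and under 50% by 18, while Rpl39l and Rpl3l shared none. Rpl17 shared words with 51 other genes, Rpl21 and Rpl29 with 82 each and Rpl7a with 120. Values of members that share most of their words are therefore uncertain.

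The comparison of arsenite-treated with untreated WT cells asked what 2 h of stress did to the transcriptome. Ribosomal protein genes fell as a group on the deposited scale. Of 84 members tested, 77 fell and 0 rose at an adjusted p under 0.05 (limma's moderated test on log2(value + 1), Benjamini-Hochberg over 12136 genes), where 27.0% of all genes were called lower and 40.7% higher. At an unadjusted p under 0.05, 78 members passed, the additional one being Rpl3l with a positive difference. The median log2 difference of the members was -0.40, against 0.08 over all genes tested and -0.13 over 620 other genes with a mean of at least 100 RPKM. Both subunits fell alike: 46 of 51 large subunit genes with a median of -0.40, and 31 of 33 small subunit genes with a median of -0.39. In 79 of 84 members the arsenite and untreated libraries did not overlap, which was so for 84.5% of all genes. These bulk values are relative to each library's reads, so less RNA of the members and more of other RNAs cannot be told apart. Nor can a change in all cells be told apart from a change in some of them.

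The size of the fall differed between scales. Under quantile scaling 48 members were called lower and 12 higher, with a median of -0.12 (-0.19 for the large and -0.10 for the small subunit), where 32.8% of all genes were called lower and 31.6% higher. Of the members called lower as deposited, 48 were lower on both scales and 8 were called higher after quantile scaling. With median-of-ratios scaling, 80 members were called lower and 0 higher, with a median of -0.49, where 34.3% of all genes were called lower and 33.4% higher. Of all calls across genes, 60.1% were higher as deposited, 49.0% after quantile scaling and 49.3% with median-of-ratios scaling. The median of the members was below 0 on the 3 scales, and Rps29, Rpl38, Rps28 and Rps21, described next, were called lower on each of them.

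**Figure D3:**
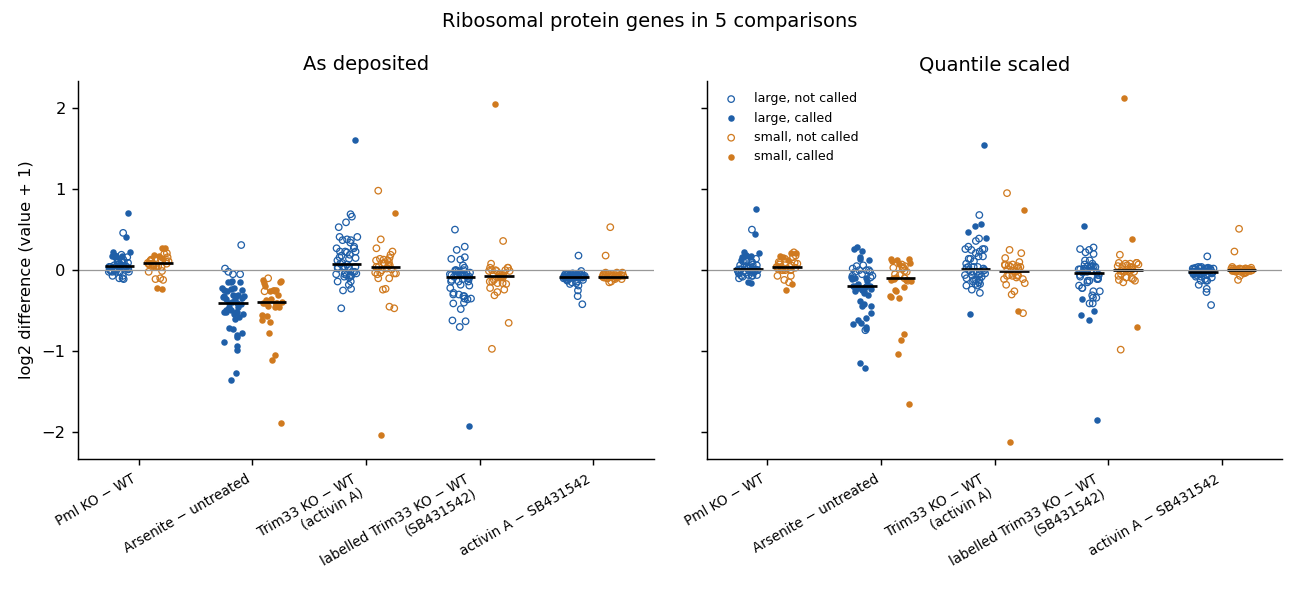
Log2 difference (on value + 1) of each tested ribosomal protein gene in 5 comparisons, as deposited (left) and quantile scaled (right); large subunit in blue, small in orange, filled points called at adjusted p under 0.05, lines at the subunit medians. With arsenite the subunit medians lie at -0.40 and -0.39 as deposited and at -0.19 and -0.10 after quantile scaling, and in the other comparisons they lie near 0.

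Among protein-coding members, the largest falls were in genes of very short proteins. Rps29, a zinc-binding small subunit protein, read 379.5 and 293 RPKM with arsenite, against 1231 and 1230 RPKM untreated. Rpl38, a large subunit protein known for its role in translation of Hox messages in mouse embryos, read 397 and 309.5 RPKM with arsenite, against 862 and 941 RPKM untreated. No arsenite library reached the level of an untreated one for either gene. Both genes share 100% of their words with other transcripts, so their values are uncertain. The log2 differences were -1.88 ± 0.10 for Rps29 (SE, adjusted p = 4.89e-06) and -1.36 ± 0.10 for Rpl38 (adjusted p = 2.61e-05), or -1.65 and -1.14 after quantile scaling.

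Rps28 and Rps21, which encode small subunit proteins, followed among protein-coding members. Rps28 read 883 and 726 RPKM with arsenite, against 1717 and 1740 RPKM untreated. Rps21 read 728 and 572 RPKM with arsenite, against 1305 and 1344 RPKM untreated. Their groups were also apart, with log2 differences of -1.11 ± 0.08 and -1.04 ± 0.10 (adjusted p = 2.32e-05 and 7.18e-05). Rpl37rt, an Rpl37 retrocopy that the GENCODE annotation calls a transcribed processed pseudogene, read 47.7 and 39.6 RPKM with arsenite, against 104 and 109 RPKM untreated (log2 difference -1.27 ± 0.08, adjusted p = 9.03e-06). Its parent Rpl37 read 428 and 375 RPKM with arsenite, against 772 and 772 RPKM untreated, a difference of -0.94 ± 0.06. Rpl37rt shares 42.5% of its words with other transcripts and Rpl37 81.2%, while Rps28 shares 100% and Rps21 44.8%.

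Rpl17, a large subunit protein near the exit of the peptide tunnel, read 536 and 264 RPKM with arsenite, against 781 and 712 RPKM untreated. The groups did not overlap, but the 2 arsenite libraries differed by 1.02 on the log2 scale, the widest gap of any member in that group. Its difference was -0.98 ± 0.27 (adjusted p = 0.0131), and -0.74 with an adjusted p of 0.0519 after quantile scaling. Rpl7a and Rpl21, which have many copies in the genome, were uneven too. Rpl7a read 382 and 378 RPKM with arsenite, against 848 and 530.0 RPKM untreated, and Rpl21 read 78.5 and 55.5 RPKM with arsenite, against 94.4 and 141 RPKM untreated; Rpl7a was uneven in untreated cells and Rpl21 in both groups. Their differences were -0.82 ± 0.18 and -0.80 ± 0.20 (adjusted p = 0.00477 and 0.00894).

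Short and long members were compared by 2 measures of length. Split at the median spliced length (1736.5 bases, all annotated exons), 39 of 42 short members fell with a median of -0.42 and 38 of 42 long members with a median of -0.32. Other genes of the same lengths had medians of -0.07 and 0.10. After quantile scaling the medians were -0.20 for short and -0.07 for long members, against -0.17 and 0.01 for other genes. The 5 classes of coding length, added after the data were seen, set the shortest members apart. The 10 members with under 300 coding bases all fell, with a median of -0.86, against -0.39 for 17 members of 300 to under 400 bases, -0.41 for 20 of 400 to under 500, -0.26 for 16 of 500 to under 650, and -0.33 for 19 of 650 or more. Quantile scaling kept the step, with medians of -0.74, -0.13, -0.15, -0.01 and -0.06. Of the members under 300 bases, Rpl38, Rps27, Rps28 and Rps29 share 100% of their words with other transcripts. Rpl37, Rpl37a and Rpl39 share 81.2%, 81.7% and 84.1%, and Rps21, Rpl41 and Rpl39l 44.8%, 4.3% and 0%.

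Per library, the median log2 level of members under 300 coding bases was 8.89 and 8.70 with arsenite and 9.96 and 10.01 untreated, while that of longer members was 9.88 and 9.78 with arsenite and 10.21 and 10.27 untreated. Both classes were lower in both arsenite libraries. Other genes under 300 coding bases with a mean of at least 100 RPKM had a median difference of -0.40 (27 genes), against -0.11 for 449 such genes of 650 bases or more, so a lower value for the shortest genes was also seen outside the members. After quantile scaling these medians were -0.17 and 0.02. Across members, Spearman's rho of the log2 difference was 0.38 with coding length (82 members) and 0.17 with spliced length and 0.04 with mean level (84 members), and after quantile scaling 0.43, 0.22 and 0.30, as a description of genes that share the same 4 libraries.

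**Figure D4:**
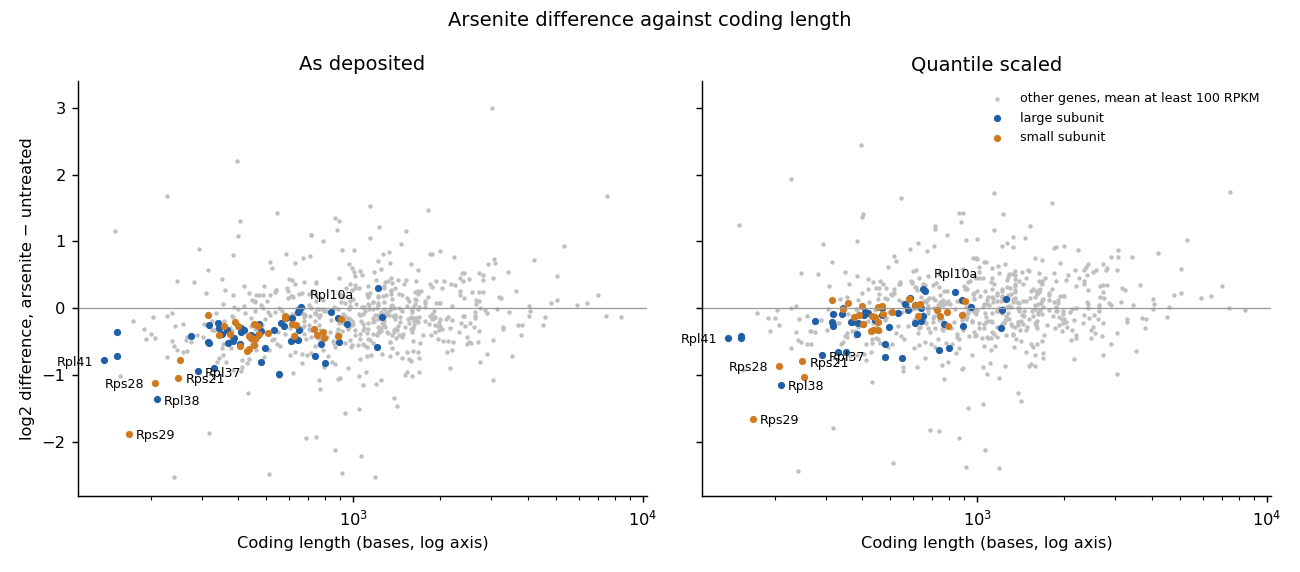
Log2 difference with arsenite against coding length (bases, log axis), as deposited (left) and quantile scaled (right); large subunit genes in blue, small in orange, other genes with a mean of at least 100 RPKM in grey. Rps29, Rpl38, Rps28 and Rps21, all under 300 coding bases, lie lowest among the named members, and Rpl10a lies near 0 as deposited and above 0 after quantile scaling.

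Members with a run of at least 8 C or T bases at the RefSeq start had a median of -0.35 (23 of 24 fell), and members with a shorter run -0.42 (37 of 40 fell). Members that share under 50% of their words with other transcripts had a median of -0.37 (15 of 18 fell), and those that share over 80% had -0.43 (52 of 54 fell), so the fall was also seen among members with the least shared sequence.

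The stalk proteins, which recruit the factors that drive elongation, had smaller differences. Rplp0 read 918 and 886 RPKM with arsenite, against 1058 and 1068 RPKM untreated. Rplp1 read 2869 and 2823 RPKM with arsenite, against 3384 and 3247 RPKM untreated, and Rplp2 1926 and 1823 RPKM with arsenite, against 2308 and 2310 RPKM untreated. Their groups did not overlap, and their log2 differences were -0.24 ± 0.04, -0.22 ± 0.05 and -0.30 ± 0.05 (adjusted p = 0.00149, 0.00585 and 0.00105). Quantile scaling took these to 0.02, -0.09 and 0.00, where Rplp1 was still called lower (adjusted p = 0.00998) and Rplp0 and Rplp2 were not called. Without the first untreated library, the difference of Rplp1 was -0.19 and no longer called.

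Rpsa, a small subunit protein also known as the laminin receptor, read 1092 and 1045 RPKM with arsenite, against 1444 and 1423 RPKM untreated, and Rps6, the substrate of the S6 kinases, 804 and 760.4 RPKM with arsenite, against 1038 and 1025 RPKM untreated. Rpl5 and Rpl11 form with 5S rRNA the particle that can bind MDM2 and so stabilise p53. Rpl5 read 532 and 509.6 RPKM with arsenite, against 737 and 750.4 RPKM untreated, and Rpl11 902 and 848 RPKM with arsenite, against 1085 and 1094 RPKM untreated. All 4 genes were lower in both arsenite libraries, with differences of -0.42 ± 0.04, -0.40 ± 0.04, -0.51 ± 0.04 and -0.32 ± 0.05 (adjusted p = 0.000106, 0.000142, 2.8e-05 and 0.000553). After quantile scaling Rpl5 (-0.26) and Rps6 (-0.12) were still called lower, while Rpsa (-0.10, adjusted p = 0.0505) and Rpl11 (-0.07, adjusted p = 0.0579) were not.

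Among the shortest and longest members by spliced length, Rpl36 fell by 0.51 on the log2 scale (1285 and 1185 RPKM with arsenite, against 1713 and 1801 RPKM untreated). The long genes Rps19, Rps24 and Rps15a had differences of -0.25 ± 0.04, -0.26 ± 0.05 and -0.20 ± 0.04 as deposited, and of 0.07, 0.03 and -0.10 after quantile scaling, so the direction of Rps19 and Rps24 turned with the scale. Rps19 is the gene most often mutated in Diamond-Blackfan anaemia in humans.

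Paralogs of ribosomal proteins varied in what they did. Rpl7l1, an Rpl7 paralog, read 82.3 and 79.6 RPKM with arsenite, against 136 and 129.5 RPKM untreated (-0.71 ± 0.04, adjusted p = 6.58e-06), while its parent Rpl7 read 1271 and 1197 RPKM with arsenite, against 1270 and 1275 RPKM untreated (-0.05 ± 0.05, adjusted p = 0.41). Rpl39l, the germ-cell-enriched copy of Rpl39, read 16.04 and 15.4 RPKM with arsenite, against 20.7 and 19.97 RPKM untreated (-0.35 ± 0.05, adjusted p = 0.000687). Rpl22l1 and Rpl36al, paralogs of Rpl22 and Rpl36a, had differences of -0.32 ± 0.05 and -0.25 ± 0.06 (adjusted p = 0.00127 and 0.00605); after quantile scaling Rpl36al had -0.09 and was not called. Rps27l, a p53 target in human and mouse cells, read 393 and 375 RPKM with arsenite, against 400.1 and 424 RPKM untreated: its difference of -0.10 ± 0.04 did not pass the test (adjusted p = 0.076), and after quantile scaling it was 0.12 and called higher (adjusted p = 0.0176). Rps4l, a processed copy of Rps4x, had -0.13 ± 0.04 as deposited (adjusted p = 0.0328) and 0.09 after quantile scaling, called on both scales with opposite signs. Rpl10l, the germ-cell copy of Rpl10, read 46.8 and 50.2 RPKM with arsenite, against 50.8 and 49.3 RPKM untreated (-0.05 ± 0.05, adjusted p = 0.414), and Rpl3l, known from striated muscle, was near the floor at 1.09 and 1.53 RPKM with arsenite, against 0.969 and 0.747 RPKM untreated (0.31 ± 0.13, adjusted p = 0.0684). Rps27rt, listed at 0 in this table, was not tested.

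Members not called with arsenite included Rpl10a, Rpl7, Rpl10l, Rpl3l, Rps27a and Rps27l. Rpl10a, a large subunit protein, read 1387 and 1285 RPKM with arsenite, against 1319 and 1392 RPKM untreated. Its groups overlapped, with a difference of -0.02 ± 0.05, and quantile scaling took this to 0.29, called higher. Rps27a, which encodes ubiquitin fused to a small subunit protein, read 938 and 738 RPKM with arsenite, against 827 and 1199 RPKM untreated, and the spread within its groups was wider than the difference between them (-0.26 ± 0.17, adjusted p = 0.209).

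Among genes that build ribosomes or work with them, the counts are to be read against the 27.0% of all genes called lower and 40.7% called higher with arsenite. In a list of 68 tested ribosome biogenesis genes, 41 fell and 3 rose, with a median of -0.20 (38 and 5, with a median of -0.17, after quantile scaling). Gar1 and Dkc1, of the complex that converts uridine to pseudouridine, had differences of -0.84 ± 0.04 and -0.74 ± 0.04. Gar1 read 55.1 and 53.6 RPKM with arsenite, against 96.04 and 99.7 RPKM untreated, and Fbl, the rRNA methyltransferase fibrillarin, fell by 0.58. Of 26 tested translation factors and other genes with known TOP messages, 15 fell and 3 rose (median -0.13), and after quantile scaling 8 fell and 8 rose (median 0.00). Eif3e had -0.50 ± 0.04, Nap1l1 -0.53 ± 0.04, and Vim, which encodes vimentin, rose by 1.01. Of 28 other initiation factor genes, 16 fell and 6 rose (median -0.14), with Eif1, which guards start codon choice, at -0.80 ± 0.06 and the cap-binding Eif4e at -0.52 ± 0.04.

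Of 26 genes that regulate ribosome production, 7 rose and 5 fell (median 0.04). The mTOR inhibitor gene Ddit4 had 85.1 and 82.7 RPKM with arsenite, against 313 and 338 RPKM untreated (-1.94 ± 0.05). Mycn, a transcription factor of the MYC family that drives ribosome production, had a difference of -1.35 ± 0.05, and Eif4ebp1, a translation repressor under mTOR, of -0.60 ± 0.04. Of 18 ribosomal protein chaperones and genes of the MDM2 and p53 branch, 5 rose and 8 fell (median -0.07). Mdm2, Ccng1 and Cdkn1a, which p53 activates, rose by 0.97, 1.18 and 0.46.

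Marker genes of cell types moved with arsenite as well. The 13 pluripotency markers summed to 3118 and 2998 RPKM with arsenite and 5935 and 5832 RPKM untreated, and 10 of 13 fell while 3 rose. The 10 trophectoderm markers summed to 164 and 166 RPKM with arsenite and 96.3 and 97.8 RPKM untreated, with 7 of 8 tested higher and 1 lower, and 3 of 5 tested fibroblast markers were higher and 1 lower, summing to 326 and 350 RPKM with arsenite and 260.0 and 259 RPKM untreated. Between 0 and 3 markers of each list were listed at 0 in a library. The part of these in the fall of the ribosomal protein genes was not tested.

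The comparison of Pml KO with WT cells asked which genes depend on PML. Ribosomal protein genes differed little. Of 85 members tested, 12 rose and 2 fell in Pml KO cells, where 16.6% of 11648 genes were called higher and 18.9% lower. The median log2 difference was 0.07, against -0.02 over all genes (0.05 for the large and 0.09 for the small subunit). After quantile scaling 15 rose and 4 fell, with a median of 0.03, where 16.1% of all genes were called higher and 18.6% lower, and 10 members were called higher on both scales. With median-of-ratios scaling 18 rose and 2 fell, where 18.1% of all genes were called higher and 16.3% lower, and with no filter on low values 2 rose and 0 fell. In 52 members the KO and WT libraries did not overlap, which was so for 69.4% of all genes. The count of rises changed with the library left out. The shares of all genes called in those fits and with no filter are not given. Such counts therefore cannot be read as a trait of the members. Short and long members had medians of 0.07 and 0.08, and the 11 members under 300 coding bases 0.16.

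Among called members, the germ-cell paralogs Rpl39l and Rpl10l differed most. Rpl21 had a larger difference than Rpl10l (0.46 ± 0.18), but its groups overlapped and it was not called (adjusted p = 0.0773). Rpl39l read 67.7 and 63.99 FPKM in Pml KO cells, against 36.9 and 43.5 FPKM in WT cells, and Rpl10l 98.2 and 90.7 FPKM in Pml KO cells, against 69.6 and 72.3 FPKM in WT cells. Both KO libraries lay above both WT libraries for each gene, with differences of 0.70 ± 0.08 and 0.41 ± 0.06 (adjusted p = 0.00027 and 0.000839), and 0.75 and 0.44 after quantile scaling. Rps27l, the p53 target, read 1009 and 971 FPKM in Pml KO cells, against 852 and 881 FPKM in WT cells (0.19 ± 0.05, adjusted p = 0.014). Without the first KO library it had 0.16 and was not called.

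Among core members, Rpl9 read 2264 and 2260 FPKM in Pml KO cells, against 1893 and 1978 FPKM in WT cells (0.23 ± 0.05, adjusted p = 0.00746). Rps12 read 2225 and 2688 FPKM in Pml KO cells, against 2043 and 2009 FPKM in WT cells (0.27 ± 0.08, adjusted p = 0.0314), and Rps21 3254 and 2767 FPKM in Pml KO cells, against 2420 and 2552 FPKM in WT cells (0.27 ± 0.08, adjusted p = 0.0241). The groups did not overlap, but the KO libraries of Rps12 and Rps21 lay farther apart than the WT ones, and neither call was stable. Rps12 stayed called only without the first KO library and had 0.14 without the second, and Rps21 was not called without the first KO library (0.16) or the first WT library (0.23). Rpl23 had 0.22 ± 0.07, Rpl5 0.18 ± 0.06, Rps19 0.17 ± 0.05, Rpl13a 0.18 ± 0.06, Rpl27 0.17 ± 0.05 and Rps4x 0.15 ± 0.05, with adjusted p between 0.023 and 0.0494. Rpl23 and Rpl5 each had 0.11 without the first WT library and were not called. They were also not called without the first KO library (0.16 and 0.17), nor was Rpl5 without the second (0.19). Rps19 was not called without the first KO library (0.14) or the second (0.20).

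The falls were in Rps26, a small subunit protein that contacts the messenger RNA, and in Rps4l. Rps26 read 5330 and 5259 FPKM in Pml KO cells, against 6369 and 6049 FPKM in WT cells, and its difference of -0.23 ± 0.05 (adjusted p = 0.0103) was -0.00 after quantile scaling, where the highest genes are placed by rank. Rps4l read 839 and 794 FPKM in Pml KO cells, against 970.1 and 938 FPKM in WT cells (-0.22 ± 0.05, adjusted p = 0.00844; -0.24 after quantile scaling). Without the second KO library its difference was -0.18 and not called.

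The stalk members, Rpsa, Rps6 and Rpl11 were not called. Rplp0 read 1404 and 1364 FPKM in Pml KO cells, against 1383 and 1385 FPKM in WT cells, with a difference of -0.00 ± 0.05. Rplp1 had -0.02 ± 0.06, Rplp2 0.10 ± 0.05, Rpsa 0.11 ± 0.04, Rps6 0.08 ± 0.04 and Rpl11 -0.00 ± 0.05. Of the paralogs, Rpl22l1 had 0.09 ± 0.08, Rpl36al 0.13 ± 0.06, Rpl7l1 -0.02 ± 0.05 and Rps27rt 0.05 ± 0.08, with the groups overlapping in all but Rpl36al. Rpl3l and Rpl29, under 1 FPKM in all libraries, were not tested. Rpl36, Rps24 and Rps15a had -0.07 ± 0.07, 0.13 ± 0.05 and 0.12 ± 0.05. A difference that misses the threshold does not show that these genes were equal.

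Counts among related genes stand beside the 16.6% of all genes called higher and 18.9% called lower in Pml KO cells. In these cells 15 of 68 ribosome biogenesis genes fell and 4 rose (median -0.05; 8 and 7 after quantile scaling), with Ddx18, an RNA helicase of the nucleolus, at -0.27 ± 0.05. Of 26 genes with TOP messages 5 rose and 0 fell (median 0.02), led by Vim, at 220.5 and 229.9 FPKM in KO and 87.2 and 90.1 FPKM in WT cells. Of 29 other initiation factor genes 5 rose and 4 fell (median -0.02), and of 26 regulators 1 rose and 7 fell (median -0.06), with Eif4ebp1, a translation repressor under mTOR, at -0.43 ± 0.05 and Ddit4 at -0.63 ± 0.08. Of 18 chaperone and p53-branch genes 3 rose and 5 fell. The 3 that rose were the p53 targets Cdkn1a (1.21 ± 0.06), Ccng1 (1.12 ± 0.05) and Mdm2 (0.74 ± 0.06).

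Markers of some other cell types were much higher in Pml KO cells, while most tested markers of primitive endoderm and neural cells were lower. The trophectoderm markers summed to 748 and 759 FPKM in KO and 73.3 and 67.2 FPKM in WT cells (9 of 9 tested higher), the fibroblast markers to 664 and 704 FPKM in KO and 214 and 204 FPKM in WT cells (7 of 8 higher, 1 lower), and the 12 markers of 2-cell-like cells to 26.4 and 24.0 FPKM in KO and 5.97 and 6.23 FPKM in WT cells (6 of 6 higher). The pluripotency markers summed to 8423 and 8153 FPKM in KO and 8569 and 8580 FPKM in WT cells (5 of 13 lower, 0 higher). The primitive endoderm markers summed to 9.97 and 9.47 FPKM in KO and 17.6 and 16.8 FPKM in WT cells (3 of 4 tested lower, 0 higher). Of 4 tested neural markers 3 were lower and 1 higher, and 2 of 2 tested mesoderm markers were higher. Between 0 and 3 markers of each list were listed at 0 in a library. Their part in the differences of the ribosomal protein genes was not tested.

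The Trim33 table asked what TRIM33 does when activin signalling is on or blocked. Replicate spread was taken over genes that averaged over 10 RPKM in a group (80 or 81 members and 5626 to 5743 genes). In 3 of its 4 groups the ribosomal protein genes varied more between replicates than all such genes did, and in WT cells with activin A they varied less. The median gap of a member between the 2 libraries of a group was 0.35 on the log2 scale in KO cells with activin A, 0.41 in libraries labelled KO with SB431542, 0.09 in WT cells with activin A and 0.33 in libraries labelled WT with SB431542, against 0.15, 0.22, 0.12 and 0.18 for all such genes. The gap was 0.04 to 0.08 in the other tables.

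With activin A, Trim33 KO and WT cells differed in 3 of 84 members, 2 higher and 1 lower, where 6.61% of 11914 genes were called higher and 2.82% lower. The median difference was 0.06, against 0.01 over all genes. Rps3a1, a small subunit protein gene on chromosome 3 (GRCm38 positions 86137940 to 86142702, minus strand, 6 exons) read 463 and 564 RPKM in Trim33 KO cells with activin A, against 2086 and 2100 RPKM in WT cells with activin A. Rpl39l read 8.70 and 8.32 RPKM in Trim33 KO cells with activin A, against 2.62 and 1.67 RPKM in WT cells with activin A, and Rps4l 759 and 926 RPKM in Trim33 KO cells with activin A, against 511 and 515 RPKM in WT cells with activin A. The groups were apart for all 3 genes. The differences were -2.03 ± 0.17 for Rps3a1 (adjusted p = 0.000503), 1.61 ± 0.24 for Rpl39l (0.00686) and 0.71 ± 0.19 for Rps4l (0.049). Rps4l was not called without any 1 of the 4 libraries of these groups (0.56 to 0.85) or of the 2 labelled WT with SB431542 (0.71 each), and Rpl39l without the second WT library (1.39).

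With SB431542 the same comparison by label gave the opposite signs, as Trim33 itself did. Rps3a1 read 2459 and 1929 RPKM in libraries labelled KO, against 489 and 566 RPKM in libraries labelled WT. Rpl39l read 3.77 and 1.93 RPKM in libraries labelled KO, against 13.7 and 12.5 RPKM in libraries labelled WT, and Rps4l 624 and 459 RPKM in libraries labelled KO, against 754 and 936 RPKM in libraries labelled WT. Rps3a1 was higher by 2.05 ± 0.17 (adjusted p = 0.000438) and Rpl39l lower, at -1.92 ± 0.24 (adjusted p = 0.00313), in libraries labelled KO. Rps4l, at -0.65 ± 0.19, was not called (adjusted p = 0.0639). These 2 of 84 members stood beside 3.01% of all genes called higher and 6.55% lower, and the median of the members was -0.08 (-0.01 over all genes). Rps3a1 thus lay between 463 and 566 RPKM in KO cells with activin A and in libraries labelled WT with SB431542, where Trim33 was low, and between 1929 and 2459 RPKM in the other 4 libraries. It shares 88.3% of its words with 9 other genes, and 76.4% with Rps3a2. Its values are therefore uncertain, and the part of read assignment in this difference was not tested. For comparison, Rps3a1 read 514 and 491 FPKM in Pml KO cells and 425 and 473 FPKM in WT cells, and 317 and 315 RPKM with arsenite and 425 and 433 RPKM untreated, in tables that were normalised separately.

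**Figure D5:**
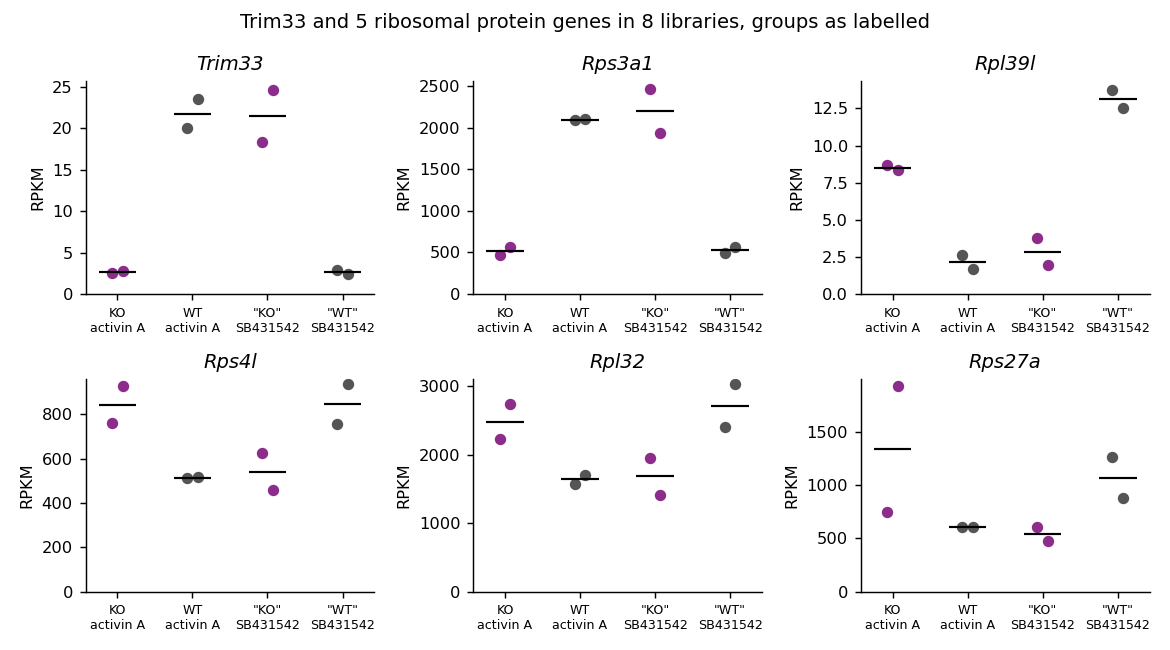
RPKM of Trim33 and of 5 ribosomal protein genes in the 8 libraries of the Trim33 table, with 1 point per library and a line at the group mean (2 libraries each); quotation marks stand for SB431542 groups as labelled. Rps3a1 lies between 463 and 566 RPKM where Trim33 is under 3 RPKM and between 1929 and 2459 RPKM elsewhere, and Rpl39l and Rps4l run the other way. Rps3a1 shares 88.3% of its words with other transcripts.

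After quantile scaling 6 members were called higher and 3 lower in KO cells with activin A, where 5.62% of all genes were called higher and 4.1% lower. With SB431542, 3 were higher and 6 lower in libraries labelled KO, where 3.9% of all genes were called higher and 5.46% lower. Among them, Rpl13, Rpl23 and Rpl32 were then called higher (0.57, 0.40 and 0.55) and Rpl10 and Rpsa lower (-0.54 and -0.50) in KO cells with activin A. As deposited, Rpsa read 755 and 959.5 RPKM in Trim33 KO cells with activin A, against 1137 and 1192 RPKM in WT cells with activin A (-0.45 ± 0.18, adjusted p = 0.162). The stalk genes were not called: Rplp1 read 2365 and 3178 RPKM in Trim33 KO cells with activin A, against 2613 and 3087 RPKM in WT cells with activin A, and its difference was -0.05 ± 0.24. Rplp0 and Rplp2 had -0.14 ± 0.16 and -0.07 ± 0.27. Rps6, Rpl5 and Rpl11 had 0.27 ± 0.19, -0.09 ± 0.18 and 0.12 ± 0.21, and the paralogs Rpl22l1, Rpl36al and Rps27l 0.19 ± 0.27, -0.14 ± 0.24 and 0.00 ± 0.22. An adjusted p that misses the threshold does not show that these genes were equal. Rpl10l had followed Rpl39l among members called in the Pml comparison. Here it read 21.5 and 18.99 RPKM in Trim33 KO cells with activin A, against 21.5 and 12.7 RPKM in WT cells with activin A (0.27 ± 0.31, adjusted p = 0.632). Rps27a read 745 and 1922 RPKM in Trim33 KO cells with activin A, against 609 and 605 RPKM in WT cells with activin A. Its second KO library stood far above the first (0.98 ± 0.38, adjusted p = 0.143).

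Tested as a difference between the activin A and SB431542 comparisons, both by label, 11 members were called: 7 positive and 4 negative, where 16.1% of all genes were positive and 10.1% negative. In each of the 11, the difference by label had one sign with activin A and the other with SB431542. Genes picked by this test tend to have such opposite signs, and the share among all genes it called is not given. Beside Rps3a1, Rpl39l and Rps4l these included Rpl10, Rpl13, Rpl27, Rpl32, Rpl7l1, Rps27a and Rpsa. Rpl32 read 2221 and 2741 RPKM in Trim33 KO cells with activin A, against 1576 and 1704 RPKM in WT cells with activin A, and 1950 and 1417 RPKM in libraries labelled KO, against 2401 and 3026 RPKM in libraries labelled WT with SB431542. The differences by label were 0.59 ± 0.21 with activin A and -0.70 ± 0.21 with SB431542, neither of which passed the test by itself (adjusted p = 0.115 and 0.0736). Rpl10, not called in either comparison by itself, had the opposite signs: it read 1258 and 1442 RPKM in Trim33 KO cells with activin A, against 1807 and 1920 RPKM in WT cells with activin A, and 2218 and 1819 RPKM in libraries labelled KO, against 1331 and 1524 RPKM in libraries labelled WT with SB431542.

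The response to activin A was set against SB431542 as a mean over both genotype labels, which does not depend on which pair of SB431542 libraries carries which label. No member was called, in limma's moderated test or after quantile or median-of-ratios scaling. Of 84 members, 3 had an unadjusted p under 0.05 (Rps27, Rpl17 and Rpl39l). Of 11914 genes 13, or 0.109%, were called higher, as after quantile scaling, and 0.134% after median-of-ratios scaling. The median difference was -0.08 for the members (-0.01 after quantile scaling) and -0.01 over all genes, and -0.08 for each subunit. Rps27, low in this table, had 0.53 ± 0.13 (adjusted p = 0.518), with all 4 activin A libraries (5.31 to 6.69 RPKM) above all 4 SB431542 libraries (3.06 to 4.57 RPKM).

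Few related genes were called between the Trim33 groups. Of all genes, 6.61% were called higher and 2.82% lower with activin A, and 3.01% higher and 6.55% lower with SB431542 by label. Only 8.8% of simulated 1.5-fold changes were recovered in the activin A design, so few calls do not show that these genes were equal. Of 68 ribosome biogenesis genes, 1 fell and 0 rose in KO cells with activin A, and 0 were called with SB431542. Of 26 genes with TOP messages 0 were called in either comparison, and of 28 other initiation factors Eif4g3 alone was, lower in KO cells with activin A (-0.89 ± 0.21) and higher in libraries labelled KO with SB431542 (0.90 ± 0.21). Of 26 regulators Rptor, a subunit of mTOR complex 1, was called, at 0.62 ± 0.16 with activin A and -0.65 ± 0.16 with SB431542 by label. Tsr2, a chaperone of Rps26, was lower in KO cells with activin A (-0.51 ± 0.13), the only call among 18 chaperone and p53-branch genes. The 12 markers of 2-cell-like cells summed to 24.7 and 9.64 RPKM in KO cells and 0.172 and 0.242 RPKM in WT cells with activin A, and to 0.230 and 0.128 RPKM in libraries labelled KO and 25.05 and 9.78 RPKM in those labelled WT with SB431542, so they were high in the same libraries as Rpl39l. Of the 9 tested, 5 were called higher in KO cells with activin A, and in each WT library with activin A 8 or 9 of the 12 were listed at 0. Their part in the difference of Rpl39l was not tested.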

How the data were processed

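RNA was sequenced with TruSeq RNA libraries, per the labels' protocols. Per the submitters' processing notes, Bowtie2 2.3.3 and featureCounts 2.0.1 were among the tools, with FastQC 0.11.5, DESeq2, SAMtools 1.9 and the mm10 build; their settings were not listed. The Pml table holds FPKM values per gene as deposited by the authors, who name the unit in the file's name. The arsenite table holds RPKM values as deposited by the authors, named in the same way. The Trim33 table names no unit and is read as RPKM, because 84.1 to 90.5% of low values of single-exon genes in these 2 tables came to whole reads within 0.05 reads. All 3 are normalised values and not counts, so count models were not used. Every value column belongs to a sample, with 0 others.

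Genes that reached a value of 1 in 2 or more of a table's libraries were tested on log2(value + 1) with limma 3.58.1 (R 4.3.3), whose moderated test shares the spread across genes, with Benjamini-Hochberg adjustment over all genes tested and a threshold of 0.05. The Trim33 groups were fitted together, the others by table. A fold change on this scale understates the change of low genes, and its error is a standard error. The steps were tested on simulated data: a 2-fold change was recovered in 100% of genes changed in the Pml design, 99.4% in the arsenite design and 68.8% in the activin A design, and a 1.5-fold change in 8.8% in the last. Alternatives were quantile and median-of-ratios scaling, a pseudocount of 0.1, no filter, members with a mean of at least 10, a coding-length split, each library left out, and the replicate block.

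Replicate numbers were shared between groups by label only: deviations of same-numbered libraries correlated at 0.02 (Pml), 0.19 (activin A) and -0.14 (SB431542). Named members were the 6 largest rises and falls among those called whose groups did not overlap, the 3 shortest and longest by spliced length, the paralogs, the stalk, Rpsa, Rps6, Rpl5 and Rpl11, with up to 4 genes of each related list by p. Rpl7a, Rpl21, Rpl13a, Rps4x, Rpl27, Rpl10, Rpl32 and the least changed members were named after their values were seen. Members, lists and tests were chosen with earlier results of these data known. Shared words were searched in GENCODE M21 transcripts, and promoters come from RefSeq on GRCm38.p6. Figures used matplotlib 3.10.9, and other steps Python 3.11.15 with numpy 2.4.6, pandas 2.3.3 and scipy 1.17.1. Results for some members are not reported here by name.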

Additional observations from a re-analysis of the deposited data

Results flagged for a closer look

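In the Trim33 table, 11 ribosomal protein genes had a KO minus WT difference by label that was not the same with activin A as with SB431542, by the test of that difference in limma (adjusted p from 2.7e-05 for Rps3a1 to 0.0485 for Rpsa). For 10 of them, on the log2 scale, the activin A difference minus the SB431542 difference was -4.08 for Rps3a1, -0.96 for Rpl10, -0.82 for Rpsa and -0.49 for Rpl7l1. It was 3.53 for Rpl39l, 1.95 for Rps27a, 1.36 for Rps4l, 1.29 for Rpl32, 1.28 for Rpl13 and 0.81 for Rpl27. In all SB431542 libraries Trim33 itself went against the genotype label, so these values depend on which pair of SB431542 libraries carries which label. Groups of 2 libraries were too small to look for a single library that stands apart by a fixed rule.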

How the results depend on the processing

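Of the values for the members named by the rule under another setting, 1149 kept their direction and side of the threshold, 47 lost their call, 15 gained one and 6 turned. These 6 turned after quantile scaling with arsenite, where members outside the rule also changed sign: Rps27l to 0.12, Rps4l to 0.09, Rps19 to 0.07, Rps24 to 0.03, Rplp0 to 0.02 and Rplp2 to 0.00. With arsenite, quantile scaling gave 12 higher and 48 lower members (0 and 77 as deposited), a median of -0.12, a large minus small subunit median of -0.10 (-0.00 as deposited) and a short minus long median of -0.13 (-0.10). Median-of-ratios scaling gave a median of -0.49, and a pseudocount of 0.1 or a mean of at least 10 a subunit difference of -0.02. In Pml KO cells, quantile scaling gave 4 lower members and a median of 0.03, no filter gave 2 higher and 0 lower, and a split by coding length a short minus long median of 0.02 (-0.01 by spliced length). In Trim33 KO cells with activin A (2 higher, 1 lower), quantile scaling gave 6 higher and 3 lower, a fit of these libraries alone 4 higher, and median-of-ratios scaling or a mean of at least 10 gave 1 higher. With median-of-ratios scaling 6.2% of all genes were called higher there and 3.3% lower. The short minus long median of 0.01 became -0.01 after quantile scaling and -0.04 by coding length. In libraries labelled KO with SB431542 (1 higher, 1 lower), quantile scaling gave 3 higher and 6 lower and a short minus long median of -0.08 (-0.05 as deposited), no filter 2 lower and a mean of at least 10 gave 0 lower. For the difference between these comparisons (7 positive, 4 negative), no filter gave 3 positive and 2 negative. Quantile scaling gave 12 positive and 6 negative, where 13.3% of all genes were positive and 13.6% negative. The causes were not tested. The shares of all genes called with no filter, with a mean of at least 10 or in the fit of these libraries alone are not given.

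With the replicate block, 20 members were higher and 2 lower in Pml KO cells, and 1 higher and 1 lower in Trim33 KO cells with activin A. With SB431542 the block gave 1 higher and 1 lower, as it did with the numbers of 1 group swapped, a pairing added after the data were seen. The shares of all genes called with the block are not given. For arsenite the block was not run. No paired analysis was possible because the untreated columns there are named with another letter than the sample titles, so they were matched to their group and not to numbered samples.

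With each library left out in turn, Pml KO cells had 5 to 22 higher and 1 to 4 lower members, a median of 0.05 to 0.09, a subunit difference of -0.04 to -0.03 and a short minus long median of -0.03 to -0.00. Arsenite gave 0 to 1 higher and 67 to 77 lower, a median of -0.44 to -0.35, a subunit difference of -0.03 to -0.01 and a length difference of -0.12 to -0.07. Trim33 KO cells with activin A had 0 to 2 higher and 1 lower, a median of -0.12 to 0.23, a subunit difference of 0.01 to 0.04 and a length difference of -0.03 to 0.04. Libraries labelled KO with SB431542 had 1 higher and 1 to 3 lower, a median of -0.30 to 0.12, a subunit difference of -0.06 to -0.00 and a length difference of -0.09 to -0.05. Activin A against SB431542 gave 0 called, a median of -0.18 to 0.01, a subunit difference of -0.03 to 0.00 and a length difference of -0.03 to 0.01. The difference between the comparisons by label had 3 to 12 positive and 1 to 4 negative. Where a group was left with 1 library, that library was assumed to vary like the others. The shares of all genes called in these fits are not given, so the counts cannot be read as a trait of the members.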

Other observations

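The proteins of the mitochondrial ribosome are encoded by other nuclear genes, whose names start with Mrpl or Mrps. Of 77 such genes tested, 37 fell and 12 rose with arsenite, with a median log2 difference of -0.15 (39 and 13 after quantile scaling), where 27.0% of all genes were called lower and 40.7% higher. In Pml KO cells 24 fell and 2 rose, with a median of -0.12 (19 and 3, with a median of -0.08, after quantile scaling), where 18.9% of all genes were called lower and 16.6% higher. With arsenite Mrpl52 had 85.1 and 86.03 RPKM, against 143 and 159 RPKM untreated (-0.81 ± 0.05). In Trim33 KO cells with activin A, 2 of 77 rose, Mrpl45 by 0.53 and Mrps35 by 0.57.

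Of 7 loci named as pseudogenes of ribosomal protein genes, 3 were tested with arsenite and all 3 fell, with a median of -0.50 (-0.59 after quantile scaling). Of 6 tested RNAs that are mostly without a poly(A) tail or hosts of such RNAs, 4 fell and 1 rose with arsenite (median -0.90). Among other marker lists with arsenite, 3 of 5 tested primitive endoderm markers rose and 1 fell, 2 of 5 neural markers rose and 3 fell, and 1 of 1 mesoderm marker rose. In Pml KO cells 3 of 4 primitive endoderm markers fell, 1 of 4 neural markers rose and 3 fell, and 2 of 2 mesoderm markers rose.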
